A study of Mus musculus with 48 samples.

Results

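The genes described here carry symbols of subunits of the mitochondrial respiratory chain and of ATP synthase, and most encode such a subunit. They were chosen by symbol alone: names beginning Nduf with a, b, c, s or v and a digit, Sdha to Sdhd, Uqcr genes, Cyc1, the Cox4i, Cox5, Cox6, Cox7 and Cox8 genes, Atp5 genes, and the mitochondrially encoded mt-Nd, mt-Co, mt-Atp and mt-Cyt genes, without pseudogene names ending in -ps. This gave 106 of the 56893 genes in the table, 93 from the nuclear genome and 13 from mitochondrial DNA. Of these, 100 passed the filter on low counts among 17352 genes tested, 87 nuclear and 13 mitochondrial. The symbols Ndufa11b, Ndufb11b, Ndufs6b, Cox6c2, Cox7b2 and Cox8c did not pass. Some members are not annotated as protein-coding. Ndufa11b, Ndufs6b and Ndufb4c are listed as transcribed processed pseudogenes, Cox6c2 as a processed pseudogene and Ndufb4b as a long noncoding RNA. Ndufb4b and Ndufb4c are among the tested nuclear members.

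The data are polyA RNA-seq libraries of 48 mice aged 5.5 to 8.5 months, each library from 1 brain hemisphere of its own mouse. Controls were Grin1fl/fl, with loxP sites around the gene for the obligatory NMDA receptor subunit and no recombinase, except that female control unrestricted replicate 2 is labelled Grin1fl/+. Knockouts were Aldh1a1+/P2A-CreERT2::Grin1fl/fl, so that 1 Aldh1a1 allele also drove the inducible recombinase CreERT2; the study aimed at ALDH1A1-positive dopaminergic neurons of the midbrain, which are few among the cells of a hemisphere. Every mouse thus carried a loxP-flanked Grin1 allele, every mouse had been moved to a single cage, and no group carried the recombinase alone. Unrestricted mice had chow throughout, restricted mice were collected after 2 nights of food restriction, and refed mice after 2 such nights and 3 days of grain-based pellets from a feeding device. Females and males of either genotype in each feeding state made 12 groups, each with 4 mice, and all are used here. Nothing in the labels names a litter or shared day, and replicate numbers only name the mice.

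The respiratory chain passes electrons from NADH (complex I) and succinate (complex II) through cytochrome bc1 (complex III) to cytochrome c oxidase (complex IV), and the resulting proton gradient drives ATP synthase (complex V). Complexes I, III, IV and V combine subunits from both genomes, while complex II is wholly nuclear. The mitochondrial subunits are transcribed as long RNAs from both strands of the mitochondrial chromosome and then cut apart, so they share their promoters. In brain most of the ATP spent on ion pumping and synaptic transmission comes from this chain.

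Library totals ranged from 7574825 to 16185336 counts. Markers of neurons were present throughout, with 5 genes (Snap25, Syt1, Rbfox3, Slc17a7 and Gad1) summing to between 4166 and 5776 CPM (the share of a library's counts on its usual common scale, with TMM factors applied). Aldh1a1 was lower in knockouts by 0.92 on the log2 scale (SE 0.05, edgeR adjusted p = 1.42e-16), and Grin1 differed by 0.02 (SE 0.04, edgeR adjusted p = 1.00). The count of Grin1 covers the whole hemisphere and the whole gene, so it checks the labels little. Female knockout unrestricted replicate 2 held 7.78% of its counts in the ribosomal RNA gene Rn18s-rs5, against at most 1.92% elsewhere. Male control refed replicate 1 held 3920 CPM of 5 skeletal muscle genes (Acta1, Myh4, Myl1, Tnnc2, Ckm) and female control restricted replicate 2 held 239.8 CPM, while the other libraries held between 7.92 and 19.6 CPM. Library numbers in the labels run from 1 to 48, and all 16 refed libraries have numbers up to 28.

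Several mitochondrial genes have a near-identical nuclear copy on chromosome 1, so their counts are uncertain. In the GRCm39 reference the copy lies on the minus strand between positions 24650616 and 24655269. It holds the whole of mt-Atp6, mt-Atp8, mt-Co2, mt-Co3 and mt-Nd4l without a difference, 876 of the 1378 bases of mt-Nd4 without a difference, and 483 of the 1545 bases of mt-Co1 with the single substitution A1066T, counted from the first base of the gene. The copy of mt-Nd3, a small complex I subunit, differs at T3C and matches at the other bases. The first 60 bases of the mitochondrial gene (chrM:9459-9518, plus strand, single exon) and of its copy Gm28438 (chr1:24652141-24652200, minus strand) are shown because they are so alike; the capital marks the difference.
mt-Nd3: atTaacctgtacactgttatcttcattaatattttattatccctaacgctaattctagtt
Gm28438: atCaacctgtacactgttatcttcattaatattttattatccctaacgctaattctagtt
The deposited estimates divided such reads between the pair: of the counts of mt-Nd3 and Gm28438 together, the copy held between 45.2% and 84.5% in the 48 libraries. The copy held between 27.7% and 42.6% of the counts shared with mt-Co3, between 27.1% and 40.1% of those shared with mt-Co2, between 31.5% and 83.3% of those shared with mt-Nd4l, between 20.4% and 35.7% of those shared with mt-Atp6, and a median of 8.65% of those shared with mt-Nd4. The level of each of these genes depends on that division.

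Overlap inside mitochondrial DNA adds to this. The genes of the ATP synthase subunits mt-Atp8 and mt-Atp6 share the 43 bases of chrM:7927-7969, printed here with the start codon of mt-Atp6 in capitals, and mt-Nd4l and mt-Nd4 share 7 bases.
mt-Atp8 and mt-Atp6: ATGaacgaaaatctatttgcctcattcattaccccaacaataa
The strand setting of the counting is not given in the sources used here, so reads of mt-Nd6, the only member encoded on the opposite strand, cannot be told from antisense RNA of its neighbours.

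Per kilobase of transcript, the mitochondrial genes stood far above the nuclear ones. The median level was 4230 CPM per kb over the 13 mitochondrial genes and 107 CPM per kb over the 87 nuclear genes tested, against 5.58 CPM per kb over all genes tested that have a length. The highest was mt-Co1, the catalytic core of cytochrome c oxidase, at 14290 CPM per kb, followed by mt-Co3 and mt-Co2 at 7762 and 7385. The lowest mitochondrial genes, mt-Nd4l and mt-Nd3, lay at 584.8 and 643.7 CPM per kb and their nuclear copies held a median of 69.9% and 68.4% of the joint counts.

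Among nuclear genes the complexes differed in level. The median of tested genes was 258 CPM per kb for complex IV, 193 for complex V, 110 for complex III, 96.2 for complex I and 59.9 for the 4 genes of complex II. The highest nuclear levels were Cox4i1 (1009 CPM per kb), the widespread isoform of the subunit that binds the catalytic core, and Ndufa4 (922.9), first described in complex I and now placed in complex IV. In complex V the catalytic beta subunit Atp5f1b led at 530.2 CPM per kb, in complex I the membrane-arm subunit Ndufb8 at 312.3, in complex III the small subunit Uqcr10 at 292.8, and in complex II the flavoprotein Sdha at 107. Lengths were those of the annotation's canonical transcript, which for genes such as Ndufb9 (4197 bases) and Ndufs6 (3593 bases) may be longer than the form most expressed, so their values per kb may be too low.

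**Figure D1:**
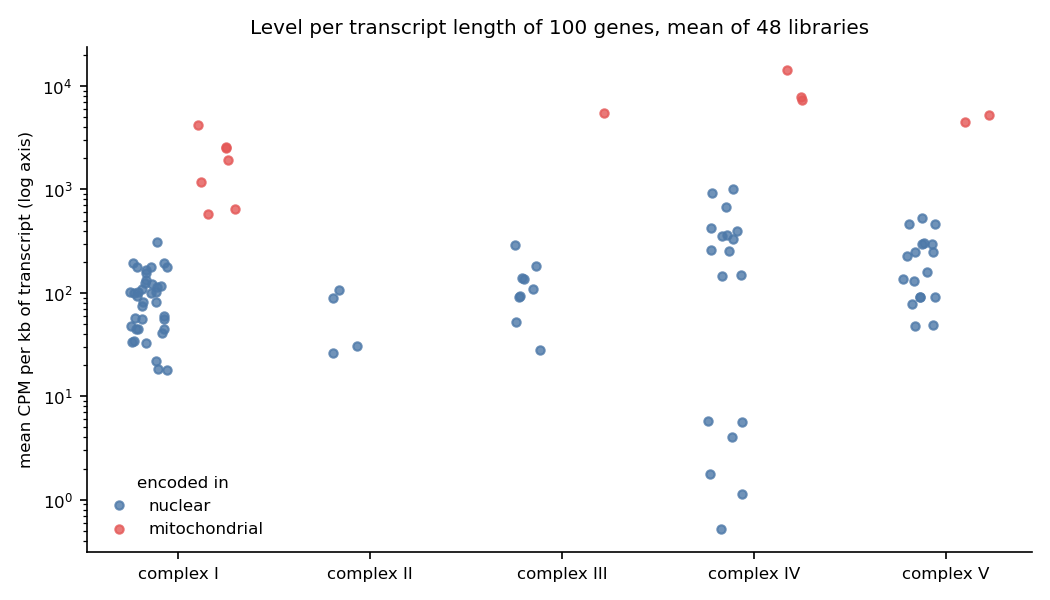
Mean CPM per kb of transcript over 48 libraries (log axis) for the 100 tested genes, placed by complex; blue points are nuclear and red points mitochondrial genes. The 13 mitochondrial genes lie between 584.8 and 14290 CPM per kb, and 6 tissue-restricted isoforms of complex IV lie under 10 CPM per kb.

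Cytochrome c oxidase has isoforms that replace each other between tissues, and these mice showed the brain pattern. Cox4i1 averaged 790.0 CPM against 1.36 for Cox4i2, an isoform known from lung and oxygen-sensing cells. Cox6a1 averaged 204.3 CPM against 3.90 for the muscle isoform Cox6a2, Cox6b1 241.1 against 2.42 for the testis isoform Cox6b2, Cox7a2 207.6 against 2.48 for the muscle isoform Cox7a1, and Cox8a 225.4 against 1.11 for the muscle isoform Cox8b. Ndufa4 averaged 488.2 CPM and its relative Ndufa4l2 1.10. Cox7a2l, which helps complex III and IV associate, averaged 187.6 CPM, Cox7b 263.6, and Atp5if1, the inhibitor of ATP hydrolysis by ATP synthase, 163.2. Cox7b2 totalled 119 counts over all 48 libraries, and Cox8c totalled 1.

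A few members are single-exon genes that resemble a spliced member, and Ndufb4b and Ndufb4c are not annotated as protein-coding. Ndufb4b and Ndufb4c stand beside the complex I gene Ndufb4, which averaged 119.0 CPM with a range of 64.8 to 172.4. Ndufb4b ranged from 9.83 to 64.0 CPM, and Ndufb4c was listed at 0 in 7 libraries and reached 38.7 CPM in another. The within-group standard deviation of log2 CPM was 2.44 for Ndufb4c and 0.69 for Ndufb4b, against 0.32 for the 3 genes summed. Their separate values are uncertain, since reads shared by such copies are divided by estimation.

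Summed over the 13 mitochondrial genes, the level ranged from 45826 to 68187 CPM, with a median of 58681. The 93 nuclear genes summed to between 11358 and 18211 CPM, with a median of 14418. The log2 ratio of the mitochondrial to the nuclear sum ranged from 1.65 to 2.46 (mean 2.00 ± 0.18, SD, n = 48). Nuclear complex V contributed 4980 CPM on average, complex I 3972, complex IV 3589, complex III 1425 and complex II 648.0, while the mitochondrial genes of complex IV contributed 33220, of complex I 14650, of complex III 6331 and of complex V 4114.

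**Figure D2:**
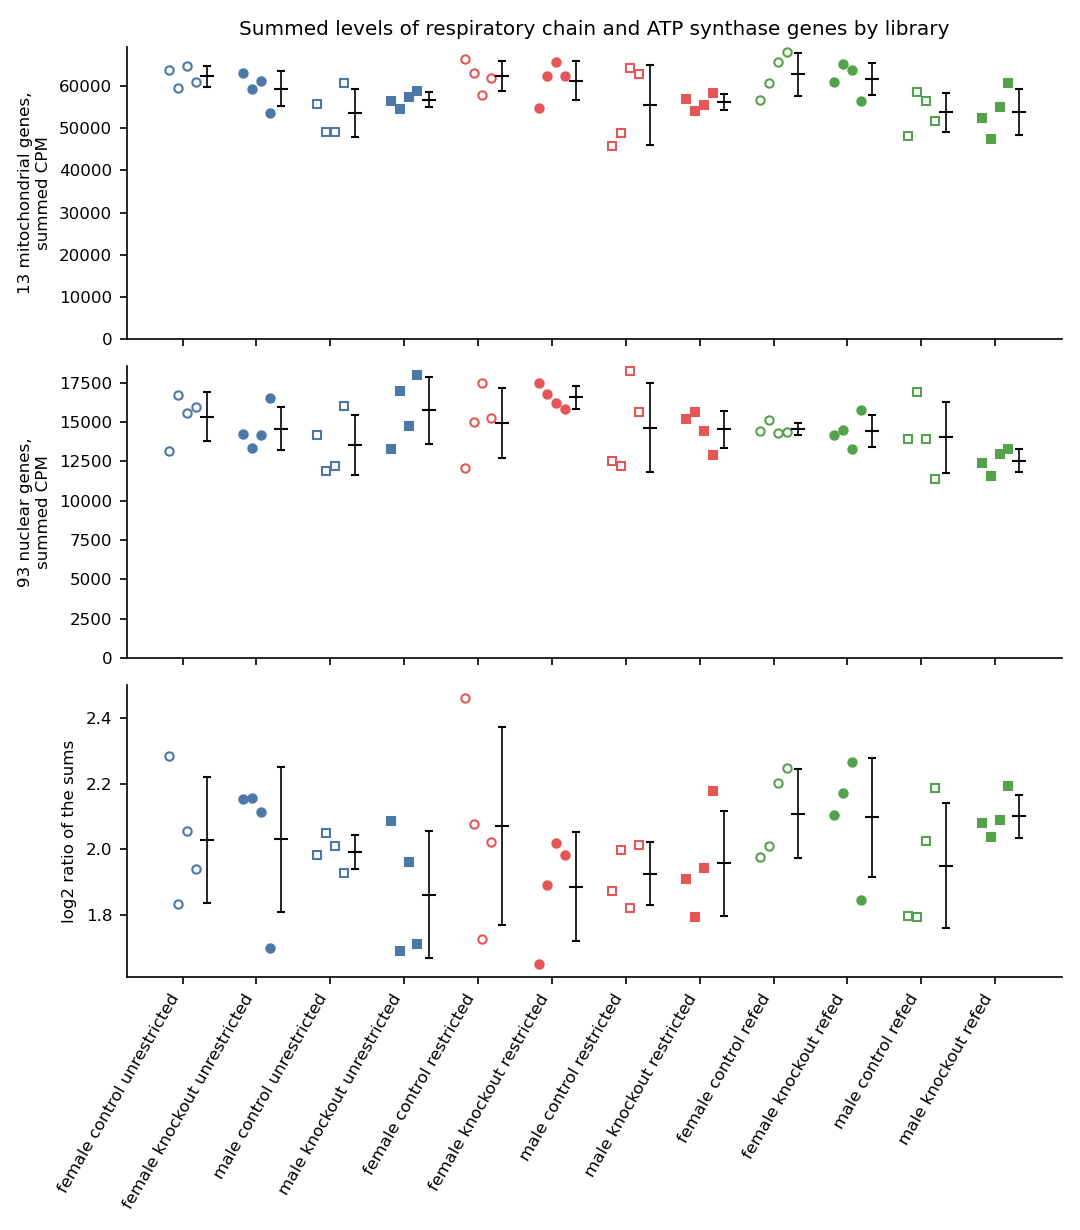
Summed CPM of the 13 mitochondrial genes (top), of the 93 nuclear genes (middle) and the log2 ratio of the sums (bottom) for each library in the 12 groups; circles are females, squares males, filled points knockouts, colours feeding states, and bars give the mean and SD of 4 libraries. Male libraries lie low in the top row, reaching down to 45826 CPM, and the ratio ranges from 1.65 to 2.46.

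The nuclear sum varied between libraries together with other short abundant RNAs. Across the 48 libraries the log2 nuclear sum and the log2 sum of 89 cytosolic ribosomal protein genes had Pearson's r = 0.95 and Spearman's rho = 0.97, and after removal of group means r = 0.95 and rho = 0.94 (0.94 without the 2 libraries farthest from the median). With 1337 other genes whose transcripts are under 1 kb the deviations gave r = 0.93 (0.92 without 2 libraries). The log2 mitochondrial sum followed the nuclear sum less closely, with r = 0.29 and rho = 0.16 over deviations. These are descriptions over libraries that share a normalization, and the nuclear members are themselves short: 44 of the 87 tested have transcripts under 1 kb, against 1441 of the 17352 genes tested. The within-group SD of log2 CPM had a median of 0.22 over nuclear members and 0.18 over all genes tested, and was smallest for Ndufs1 (0.07) and Atp5f1b (0.09).

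**Figure D3:**
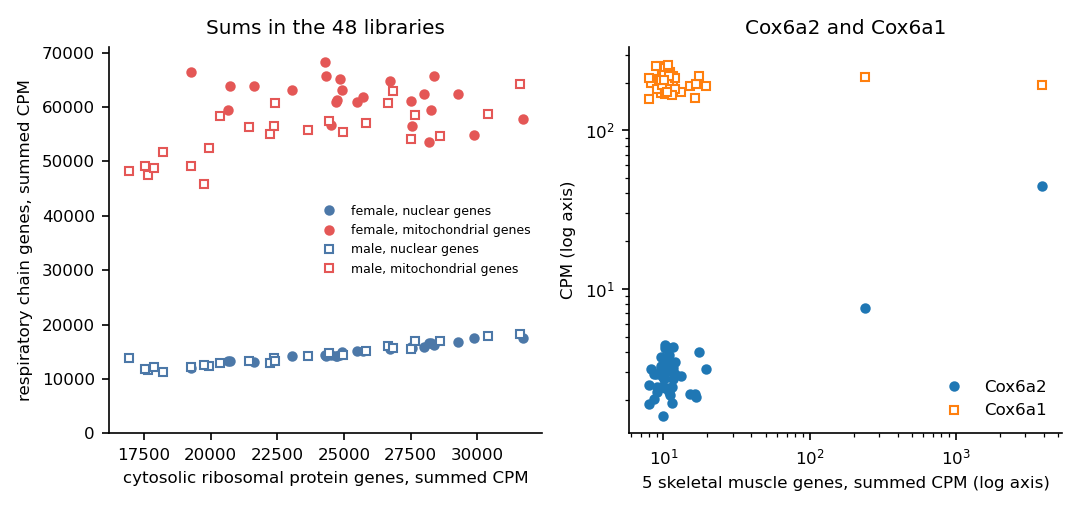
Left, summed CPM of nuclear (blue) and mitochondrial (red) members against that of cytosolic ribosomal protein genes in 48 libraries, filled for females; right, Cox6a2 and Cox6a1 against the summed CPM of 5 skeletal muscle genes (log axes). The nuclear sum rises from 11358 to 18211 CPM along the ribosomal sum (r = 0.95 between the log2 sums). Cox6a2 reaches 44.7 CPM in the library with 3920 CPM of muscle genes.

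Food restriction was first compared with free access to chow. No subunit gene was called (edgeR quasi-likelihood test, adjusted p under 0.05), although 15.2% of all genes tested were called in this comparison over all mice, 1269 of them higher and 1361 lower. None of the 100 tested members reached an unadjusted p under 0.05 either. The median log2 difference was 0.03 over nuclear members, 0.03 over mitochondrial members and 0.00 over all genes. The smallest p belonged to Atp5f1a, the alpha subunit of ATP synthase, at 0.07 (SE 0.04, edgeR adjusted p = 0.204). Complex IV genes had a median of 0.04 and complex I genes 0.03. No member was called in females (background 6.27%) or in males (background 8.28%) alone.

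Refeeding was then compared with restriction. Of 100 members, 3 were called and all were lower in refed mice: Ndufb8 and Ndufv2 of complex I and Atp5po of complex V. The background was 15.2% of genes called in either direction and 6.79% called lower, so 3 of 100 is below the share of all genes. Ndufb8, an accessory subunit of the membrane arm on chromosome 19, ranged from 155.0 CPM through a median of 233.6 to 304.4 in 16 restricted libraries, and from 146.2 through 197.7 to 245.5 in 16 refed libraries. The ranges overlapped over most of their width, with the refed libraries missing from the upper end. The fitted difference was a fall of 0.27 on the log2 scale (SE 0.08, edgeR adjusted p = 0.0124).

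Ndufv2, an iron-sulfur core subunit of the NADH-oxidising arm on chromosome 17, had a median of 206.1 CPM when restricted (146.0 to 226.1) and 166.9 when refed (125.7 to 214.6). It fell by 0.23 (SE 0.07, edgeR adjusted p = 0.0239). Atp5po, the peripheral stalk subunit also called OSCP, on chromosome 16, had a median of 257.4 CPM when restricted (195.3 to 310.5) and 224.0 when refed (166.1 to 271.9). It fell by 0.19 (SE 0.06, edgeR adjusted p = 0.0353). In unrestricted mice the medians of Ndufb8, Ndufv2 and Atp5po were 220.4, 177.0 and 243.4 CPM, between those of the other feeding states. The next genes by p, Ndufv3 and Ndufs4 of complex I, had log2 differences of -0.17 (SE 0.06, edgeR adjusted p = 0.0502) and -0.27 (SE 0.10, edgeR adjusted p = 0.0511).

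**Figure D4:**
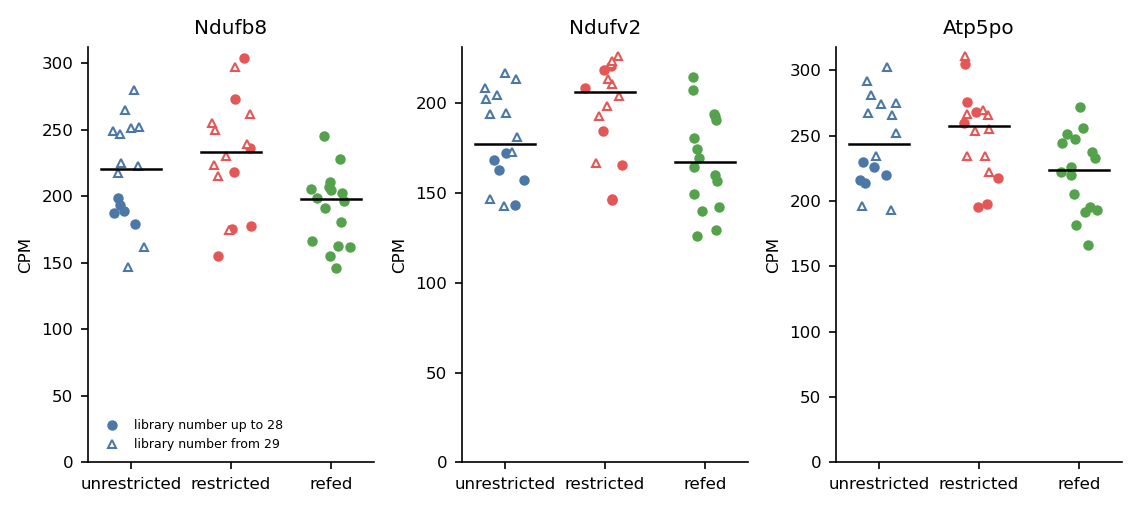
CPM of Ndufb8, Ndufv2 and Atp5po in 16 unrestricted, 16 restricted and 16 refed libraries; filled circles have library numbers up to 28, open triangles numbers from 29, and bars are medians. All refed points are circles, their medians are 197.7, 166.9 and 224.0 CPM, and the restricted triangles of Ndufb8 average above the restricted circles.

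The tilt of the nuclear genes was wider than these calls and small. At an unadjusted p under 0.05, 38 of 87 nuclear members were lower in refed mice and 1 was higher, where 13.7% of all genes tested were lower. The median log2 difference was -0.12 over the 87 nuclear members and 0.01 over the 13 mitochondrial ones, with 0.00 over all genes. By complex the nuclear medians were -0.15 for V, -0.12 for I, -0.11 for IV, -0.10 for III and -0.04 for the 4 genes of II. Cytosolic ribosomal protein genes had a median of -0.17, with 9 of 83 called lower and none higher. The log2 nuclear sum was 0.12 lower in refed than in restricted mice, against a within-group SD of 0.17, and the log2 ratio of mitochondrial to nuclear sums was 0.10 higher, against an SD of 0.18.

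Library number moved with this comparison. Among libraries numbered up to 28, 16 refed and 7 restricted, the log2 CPM differences were -0.18 for Ndufb8, -0.13 for Ndufv2 and -0.14 for Atp5po, and the log2 nuclear sum differed by -0.07. The 9 restricted libraries numbered from 29 had a mean log2 CPM of 7.89 for Ndufb8, against 7.75 in the 7 numbered up to 28. With library number as a block, 0 members were called where 11.8% of all genes were, with 0 nuclear members lower at an unadjusted p under 0.05, and the values were -0.11 for Ndufb8 (edgeR adjusted p = 0.41), -0.09 for Ndufv2 (edgeR adjusted p = 0.527) and -0.08 for Atp5po (edgeR adjusted p = 0.497). No refed library is numbered from 29, so that range gives no value.

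Single libraries also moved the count of 3. The share of all genes called in these fits is not given, so the counts are not a result about the members alone. Ndufb8 remained called without any 1 of the 48 libraries. Ndufv2 was not called without female knockout refed replicate 3, female control restricted replicate 3, or male control restricted replicate 3 or 4, and the count was then 1. Atp5po was not called without any 1 of 16 libraries: these 4, female control restricted replicate 4, female control refed replicates 1 and 4, female knockout restricted replicates 1 and 2, male control refed replicates 1 and 4, male knockout restricted replicates 1 and 2, and male knockout refed replicates 1, 2 and 3. The count was 5 without male knockout refed replicate 4, male knockout unrestricted replicate 1 or male control unrestricted replicate 2, 7 without male knockout restricted replicate 4, 8 without female knockout refed replicate 4 and 10 without male control restricted replicate 1. It was 17 without male control restricted replicate 2, 20 without female control restricted replicate 1 and 32 without male control refed replicate 2, whose nuclear sum of 16923 CPM was the highest of the 16 refed libraries. Limma voom with sample quality weights called 23 members, where it called 21% of all genes tested. Without the 2 libraries that stand apart by ribosomal RNA and by muscle RNA, 3 were called, Ndufb8, Ndufv2 and Cox6a2. With a trend on GC content removed 5 were called, Ndufb8, Ndufv2, Ndufb9, Ndufs4 and mt-Co3, and Atp5po was not (edgeR adjusted p = 0.0827).

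Cell markers differed between the same groups. All 5 microglia markers and all 5 red cell markers were called higher in refed mice, where 1454 of the 17352 genes tested were called higher. The microglial sum ranged from 182.0 to 238.0 CPM in restricted and from 216.5 to 260.0 CPM in refed libraries. The red cell sum ranged from 288.1 to 818.8 and from 779.5 to 2715 CPM. None of the 5 neuron markers was called, with sums from 4166 to 5489 and from 4349 to 5776 CPM. For pericytes the restricted and refed sums were 103.8 to 160.6 and 146.3 to 198.3 CPM. Those of astrocytes were 870.2 to 1138 and 985.1 to 1420, and of endothelium 96.7 to 141.8 and 91.5 to 142.55. Those of oligodendrocytes were 8034 to 15540 and 9165 to 13804, and of choroid plexus 347.8 to 866.3 and 399.35 to 722.2. The part of these in the subunit values was not tested, and fewer cells of a type and less RNA per cell cannot be told apart in a hemisphere.

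By sex, 1 member was called in males and none in females. In males Ndufb8 ranged from 155.0 to 297.4 CPM in 8 restricted libraries (median 221.2) and from 146.2 to 202.8 in 8 refed libraries (median 164.6), a fall of 0.34 (SE 0.11, edgeR adjusted p = 0.0438). The background was 8.33% in males and 6.1% in females, and the nuclear medians were -0.13 and -0.12. This call was lost without any 1 of 24 of the 48 libraries, and the count in males was 27 without male control refed replicate 2. The share of all genes called in that last fit is likewise not given. The difference of the feeding effects between the sexes was tested directly and called 0% of all genes and 0 members.

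Refed mice were compared with unrestricted mice. No member was called where 0.738% of all genes were, 81 higher and 47 lower. At an unadjusted p under 0.05, 19 nuclear members were lower, where 6.13% of all genes were, and 3 were higher. The smallest p was that of the core complex I subunit Ndufs1, at 0.10 (SE 0.03, edgeR adjusted p = 0.121), with the ATP synthase alpha subunit Atp5f1a at 0.09 (SE 0.04, edgeR adjusted p = 0.276). Both values were above 0 while the nuclear median was -0.11. Library number moved with this comparison too. Every refed library is numbered up to 28, while most unrestricted libraries have higher numbers. The nuclear median with library number as a block is not given here, so the part of library number in it was not tested. No member was called in females (background 0.0403%) or males (background 0.167%).

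**Figure D5:**
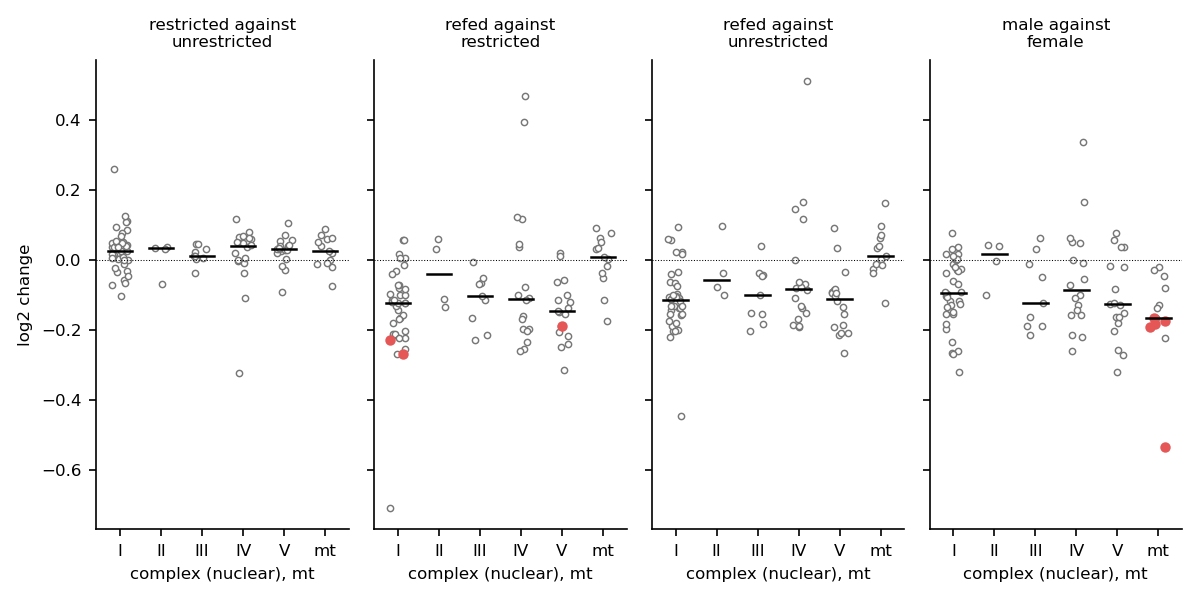
Log2 changes of the 100 tested genes in 4 comparisons, with nuclear genes by complex and mitochondrial genes as mt; red points are called at an adjusted p under 0.05 and bars are medians. Nuclear medians lie at -0.12 for refed against restricted mice, where the mitochondrial median is 0.01, and the 5 called genes for male against female mice are all mitochondrial.

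Knockouts were compared with controls. No member was called over all mice, where the background was 0.00576% (1 gene, Aldh1a1), and the medians were 0.02 over nuclear and 0.00 over mitochondrial members. Log2 differences over the 13 mitochondrial genes lay between -0.03 and 0.03. The tests of genotype by sex and of genotype by feeding state called 0% of genes and no member. Among the 6 combinations of sex and feeding state, the background was 0.0115% in unrestricted females, 0.00576% in unrestricted males, restricted males and refed females, 0.386% in restricted females and 0.225% in refed males, and 1 member was called, in refed males.

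That member was Cox6a2, the muscle isoform of a regulatory subunit of cytochrome c oxidase, on chromosome 7. Its values in the 4 refed control males were 44.7, 3.59, 2.88 and 2.41 CPM, and in the 4 refed knockout males 2.24, 1.87, 2.01 and 1.91 CPM. The groups did not overlap, but the first control was male control refed replicate 1, the library with muscle RNA. The fitted fall was 2.74 (SE 0.51, edgeR adjusted p = 0.00306), and without that library it was 0.56 (edgeR adjusted p = 0.689). The muscle isoforms Cox8b (15.8 CPM) and Cox7a1 (11.4 CPM) were also highest there, against medians of 0.66 and 2.26 CPM in the other 47 libraries. In female control restricted replicate 2, with 239.8 CPM of muscle genes, Cox6a2 was 7.59, Cox8b 2.73 and Cox7a1 3.64 CPM. The widespread partners in male control refed replicate 1 lay inside the range of the others, Cox6a1 at 192.0 CPM.

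In the same library 15 of the 87 tested nuclear members had their highest value of all 48 libraries (17.2%, against 10.4% of all genes tested), and none of the 13 mitochondrial ones did. Besides the muscle isoforms they included catalytic and core subunits. Atp5f1a reached 1086 CPM against a median of 730.8 elsewhere, Ndufv1 187.6 against 124.5, Sdha 461.3 against 326.8, Uqcrc1 310.2 against 223.9 and Atp5f1b 1384 against 1005. In the other direction 4 nuclear members (4.6%) and 2 mitochondrial ones (15.4%) had their lowest value of the 48 libraries there, against 6.73% of all genes tested. They were Atp5mk at 138.4 CPM, Cox7a2l at 139.1, Ndufa7 at 75.7, Ndufs4 at 87.0, mt-Co2 at 3948 and mt-Nd3 at 99.3.

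The median of the nuclear members stood off 0 in some genotype comparisons without a nuclear call beyond Cox6a2. In unrestricted males the nuclear median was 0.22, with 16 members higher at an unadjusted p under 0.05 where 1.86% of all genes were, and cytosolic ribosomal protein genes had a median of 0.26. In restricted females the nuclear median was 0.16, with 8 members higher where 4.95% of all genes were, and the ribosomal median was 0.18. In refed males it was -0.17, with 20 lower where 4.88% of all genes were, and the ribosomal median was -0.07. The mitochondrial medians in these combinations were 0.04, 0.03 and 0.01. Without the libraries with most ribosomal RNA and with muscle RNA, the nuclear median in refed males was -0.20 with 5 members lower at that p.

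Males and females differed in the mitochondrial genes. Of 100 members, 5 were called, all mitochondrial and all lower in males, where the background was 0.357% of genes in either direction and 0.219% lower. They were the catalytic subunit mt-Co1 of complex IV, mt-Nd1, mt-Nd3 and mt-Nd4 of complex I, and the proton channel subunit mt-Atp6 of complex V. All 13 mitochondrial genes had values below 0, with a median of -0.17, against -0.10 over nuclear members and 0.01 over all genes tested. The summed level ranged from 53656 through a median of 62071 to 68187 CPM in 24 females, and from 45826 through 55660 to 64273 CPM in 24 males. The ranges overlapped. By feeding state the medians were 61205 and 56132 CPM in unrestricted, 62327 and 56255 in restricted, and 62406 and 53724 in refed females and males.

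The gene mt-Co1 ranged from 20457 through a median of 23502 to 27088 CPM in females and from 16866 through 20789 to 24614 CPM in males, a fall of 0.18 (SE 0.04, edgeR adjusted p = 0.0356). Medians of mt-Nd1 were 4310 CPM in females and 3879 in males, a fall of 0.17 (SE 0.04, edgeR adjusted p = 0.0408). Medians of mt-Nd4 were 3652 and 3268 CPM, a fall of 0.17 (SE 0.04, edgeR adjusted p = 0.0429). Medians of mt-Atp6 were 3254 and 2823 CPM, a fall of 0.19 (SE 0.05, edgeR adjusted p = 0.0495). In each of these 4 genes the male and female ranges overlapped, and the lowest libraries were male.

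The other mitochondrial genes were not called. The values were -0.22 for mt-Co3 (SE 0.05, edgeR adjusted p = 0.0539), -0.17 for mt-Nd2 (SE 0.04, edgeR adjusted p = 0.0614), -0.14 for mt-Cytb, the complex III subunit (SE 0.04, edgeR adjusted p = 0.105), and -0.13 for mt-Co2 (SE 0.05, edgeR adjusted p = 0.166). The long complex I gene mt-Nd5 was at -0.08 (SE 0.05, edgeR adjusted p = 0.361). The genes mt-Nd4l, mt-Nd6 and mt-Atp8 were at -0.05, -0.03 and -0.02, with standard errors of 0.11, 0.05 and 0.08, and their sign turned with a trend on GC content removed.

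The largest of these differences was that of mt-Nd3, and it depended on how reads were divided with the nuclear copy printed above. Its level ranged from 159.0 through a median of 254.9 to 427.7 CPM in females and from 99.3 through 165.2 to 351.2 CPM in males, a fall of 0.54 (SE 0.12, edgeR adjusted p = 0.0383). The copy held 64.7% ± 8.4 of the joint counts in females and 71.8% ± 9.3 in males (SD, n = 24 each). With the counts of the copies added to their mitochondrial genes, the value of mt-Nd3 was -0.21 (SE 0.06, edgeR adjusted p = 0.0885) and that of mt-Atp6 -0.16 (SE 0.04, edgeR adjusted p = 0.0697). Then 4 members were called, mt-Co1 at -0.19, mt-Nd1 at -0.17, mt-Nd4 at -0.19 and mt-Co3 at -0.25, with edgeR adjusted p-values of 0.0338, 0.0382, 0.013 and 0.0382. The share of all genes called with copies added is not given here, and was 0.357% in the fit as reported.

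No nuclear member was called between the sexes, and 34 of 87 were lower in males at an unadjusted p under 0.05, where 7.99% of all genes were. The smallest p-values were those of Ndufs4, a complex I assembly-stabilising subunit, at -0.27 (SE 0.08, edgeR adjusted p = 0.103) and Atp5f1e, the small epsilon subunit of ATP synthase, at -0.32 (SE 0.10, edgeR adjusted p = 0.106). By complex, the log2 summed nuclear level was lower in males by 0.14 for IV, 0.10 for I, 0.09 for III and 0.08 for V, with within-group SDs of 0.23, 0.17, 0.15 and 0.15, and complex II differed by 0.01. The log2 ratio of mitochondrial to nuclear sums was 0.07 lower in males, against an SD of 0.18. Cytosolic ribosomal protein genes also reached lower in males. Their sum ranged from 19284 to 31705 CPM in females and from 16942 to 31600 CPM in males, and the lowest libraries were male. None of these genes was called, where 0.357% of all genes were. The part of this shared tilt in the subunit values was not tested.

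Among libraries numbered up to 28 the log2 difference of mt-Co1 was -0.25 (13 males, 15 females) and among those from 29 it was -0.10 (11 males, 9 females), while for the log2 mitochondrial sum these were -0.22 and -0.10. With library number as a block 16 members were called, 7 mitochondrial and 9 nuclear, where 2.75% of all genes were. With a trend on GC content removed 0 were, where 0.202% of all genes were, the mitochondrial median then being -0.09. With a trend on transcript length removed the median was -0.11 and mt-Co1, mt-Co3, mt-Nd3 and the nuclear Atp5f1e were called, where 0.651% of all genes were. Of the marker lists, the 5 oligodendrocyte genes summed to between 8947 and 17229 CPM in females and between 8034 and 14973 CPM in males, with 0 of 5 called, the 5 neuron genes to between 4166 and 5314 and between 4407 and 5776 CPM, with 0 of 5 called, and 1 of 5 pericyte genes was called lower in males. The part of these in the mitochondrial values was not tested.

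Leaving out single libraries, in fits whose share of all genes called is not given, moved the sex count of 5 between 0 and 23. It was 0 without male control restricted replicate 2, male control unrestricted replicate 2 or 3, male knockout unrestricted replicate 2 or female knockout unrestricted replicate 3. It was 1 without male knockout refed replicate 1 or 2, male control restricted replicate 1, male knockout unrestricted replicate 3, female control restricted replicate 1, female knockout restricted replicate 2 or 4, female control refed replicate 3 or 4, female knockout refed replicate 2 or female control unrestricted replicate 3. It was 2 without male control refed replicate 4, male knockout unrestricted replicate 1, female knockout unrestricted replicate 1 or female control refed replicate 2. It was 3 without male knockout restricted replicate 1 or 4, female knockout restricted replicate 3, female knockout refed replicate 1 or 4 or female control unrestricted replicate 4, 8 without male control restricted replicate 3 and 23 without male control refed replicate 2. In all 48 of these fits the 5 genes stayed below 0, with mt-Co1 between -0.20 and -0.17 and mt-Nd3 between -0.60 and -0.49. Limma voom with sample quality weights called 40 members, where it called 11% of all genes tested.

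Upstream sequence was also compared for the nuclear genes. RefSeq promoter windows on GRCm38.p6 were matched for 69 of 93 nuclear members, 13 of them by an older symbol, giving 74 windows. Within 250 bases before the start, the letters GCATGCGC on either strand, the core of the NRF1 motif, were found in 8 of 74 windows (10.8%), against 0 of 76 windows of cytosolic ribosomal protein genes and 2.3% of 32851 windows of all genes. NRF1 is a factor known for binding promoters of respiratory genes. CCGGAAGT, an ETS-type motif bound by GABP, was found in 4.1%, 10.5% and 2.9% of these sets, and AAGATGGC, the core of the YY1 motif, in 1.4%, 3.9% and 1.6%. Windows of 4 genes, 1 each from complexes I, II, IV and V, are printed with the match in capitals; GCGCATGCGC holds the letters on both strands.
Ndufa11 (complex I, chr17:56717682-56717731, plus strand): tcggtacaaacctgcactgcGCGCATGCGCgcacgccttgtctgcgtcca
Sdhb (complex II, chr4:140961197-140961244, plus strand): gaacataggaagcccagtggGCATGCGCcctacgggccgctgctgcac
Cox6a1 (complex IV, chr5:115349091-115349140, minus strand): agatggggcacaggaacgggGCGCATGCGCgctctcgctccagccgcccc
Atp5me (complex V, chr5:108434420-108434469, minus strand): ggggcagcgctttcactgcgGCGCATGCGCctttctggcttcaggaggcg
For refed against restricted mice Ndufa11, Sdhb, Cox6a1 and Atp5me had log2 differences of -0.22, -0.11, -0.12 and -0.21, none of them called. The median over all tested nuclear members was -0.12. Values of the other genes with these letters are not given here. The part of the motif in these values was not tested. The windows of Ndufb8, Ndufv2 and Atp5po, the genes called after refeeding, hold none of the 3 motifs in these letters. Most member windows hold none, since 12 of the 74 hold any of the 3.

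Genes that build, feed or regulate the chain were counted over all mice under restriction and on refeeding against restriction. Both comparisons called 15.2% of all genes tested. Under restriction every one of these lists but the uncoupling and antioxidant genes held a smaller share of called genes than that, and counts near or below that share are not a result about a list. Of 55 assembly factors, 2 were higher and 3 lower in restricted than in unrestricted mice, led by Bcs1l, which inserts the iron-sulfur protein of complex III, at -0.38 (SE 0.05, edgeR adjusted p = 1.13e-07), and 2 were higher and 5 lower in refed than in restricted mice, with Bcs1l at 0.33 (SE 0.05, edgeR adjusted p = 2.9e-06). Of 25 genes of the tricarboxylic acid cycle and pyruvate dehydrogenase, 3 were higher and none lower under restriction. Pdk4, the kinase that shuts off pyruvate dehydrogenase, rose by 0.91 (SE 0.10, edgeR adjusted p = 6.99e-10) and fell by 0.68 on refeeding (SE 0.09, edgeR adjusted p = 5.05e-07). Idh2, mitochondrial isocitrate dehydrogenase, rose by 0.29 under restriction (SE 0.06, edgeR adjusted p = 0.000186). On refeeding 3 of these 25 genes were called, with Pdk1 higher by 0.19 (SE 0.04, edgeR adjusted p = 0.00139). Of 11 uncoupling and antioxidant genes, 2 rose and 1 fell under restriction, with the carrier Ucp2 at 0.58 (SE 0.05, edgeR adjusted p = 4.17e-11) and back by -0.53 on refeeding (SE 0.05, edgeR adjusted p = 6.44e-10). On refeeding 3 of these 11 genes were called, with Ucp3 at -0.54 (SE 0.09, edgeR adjusted p = 3.77e-05).

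Of 31 genes of mitochondrial gene expression, 2 rose and 1 fell under restriction, with the mitochondrial RNA polymerase Polrmt at 0.15 (SE 0.04, edgeR adjusted p = 0.00729) and the RNA-degrading enzyme Pnpt1 at 0.17 (SE 0.05, edgeR adjusted p = 0.0196), while on refeeding 1 rose and 4 fell. Of 78 mitochondrial ribosomal protein genes, 3 rose and 1 fell under restriction and 9 fell on refeeding, with a median of -0.09, led by Mrpl4 at -0.18 (SE 0.04, edgeR adjusted p = 0.000185). Over all mice none of 19 biogenesis regulators was called under restriction, and Sirt1 alone fell on refeeding, by 0.18 (SE 0.06, edgeR adjusted p = 0.021). In males Ppargc1a, a coactivator of mitochondrial biogenesis, rose by 0.20 under restriction (SE 0.05, edgeR adjusted p = 0.0117) and fell by 0.18 on refeeding (SE 0.05, edgeR adjusted p = 0.0256). In these male comparisons 8.28% and 8.33% of all genes were called. No regulator was called in females between feeding states. The test of feeding state by sex called 0% of genes, so a difference of Ppargc1a between the sexes is not shown. Between the genotypes, Ppargc1a was lower in knockouts among restricted females by 0.33 (SE 0.08, edgeR adjusted p = 0.0335), where 0.386% of all genes were called. Of 15 electron and membrane carriers, 1 was called under restriction and 3 on refeeding, where each comparison called 15.2% of all genes. Gpd2, the mitochondrial glycerol phosphate dehydrogenase, fell under restriction by 0.15 (SE 0.04, edgeR adjusted p = 0.0106) and was higher by 0.19 on refeeding (SE 0.04, edgeR adjusted p = 0.00124). Slc25a5 fell on refeeding by 0.13 (SE 0.04, edgeR adjusted p = 0.0186). The restriction and refeeding comparisons share the restricted libraries. In none of these lists was a gene called in refed against unrestricted mice, between the genotypes over all mice, or between the sexes. The shares of all genes called there were 0.738%, 0.00576% and 0.357%.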

How the data were processed

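Messenger RNA of 48 mouse brain hemispheres was sequenced after poly-A selection, per the labels' protocols. The authors deposited 1 table of estimated counts by gene symbol that need not be whole, not scaled between libraries. For these estimated counts the submitters' processing notes name fastp, STAR, Salmon and the mm39 build as used by the authors, without their roles; versions, annotation and strand setting are not given in the sources used here. Columns were matched to mice by library name. Each library is a separate mouse, and p-values measure the spread between these mice.

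Counts were rounded and filtered with filterByExpr of edgeR 4.0.16 (minimum count 10, minimum total 15), leaving 17352 genes. The TMM factors lay between 0.913 and 1.03. The quasi-likelihood model (glmQLFit, glmQLFTest, R 4.3.3) with 1 coefficient for each of 12 groups was fitted to all 48 libraries, and p-values were adjusted over all genes by Benjamini-Hochberg; a gene is called at an adjusted p under 0.05. CPM use the TMM factors, log2 CPM a prior count of 2. Lengths, positions and copies come from GENCODE M39 on GRCm39, by symbol. Totals of 7574825 to 16185336 counts set the precision, for counting error only. Members, lists and tests were chosen with earlier results of these data known. Named genes were all mitochondrial genes, the 3 called nuclear genes of smallest p in each complex and feeding comparison, and every member called for genotype or sex. Named too were a fixed list of isoforms and, from each other list, some of the 2 called genes of smallest p in a comparison. Further names were chosen after their values were seen.

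Alternatives were DESeq2 1.42.0, RLE factors, scaling without mitochondrial genes, no filter, limma 3.58.1 (voom with quality weights), robust spread, age, library number up to 28 or from 29 as a block, trends on transcript length or GC content removed in 20 bins, a threshold of 0.1, only the groups compared, and each library left out. Added after seeing the data were the counts of 9 nuclear copies joined to their mitochondrial genes, and a fit without 2 libraries that stand apart. Sequence reads were not analysed here.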

Additional observations from a re-analysis of the deposited data

Results flagged for a closer look

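Within the 12 groups of 4, the gap between 1 library and the nearest other, divided by the group's range, was above the 95% critical value of Dixon's test for 4 samples in 4 of 144 group and measure combinations; chance alone passes about 1 in 20. The combinations were the nuclear and mitochondrial sums, their ratio and the 9 genes called in a comparison.

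The log2 ratio of mitochondrial to nuclear sums was 1.70 in female knockout unrestricted replicate 4 and between 2.11 and 2.16 in the other libraries of that group (gap ratio 0.903). Log2 CPM of Cox6a2 was 5.49 in male control refed replicate 1, the library with skeletal muscle RNA, against 1.37 to 1.92 in the others (0.868), and 2.00 in female knockout restricted replicate 3 against 1.63 to 1.69 (0.847). Log2 CPM of mt-Nd1 was 11.84 in male knockout restricted replicate 2 against 11.99 to 12.02 (0.835).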

How the results depend on the processing

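The counts of called members (of 100) moved as follows. Shares of all genes called also moved with the setting, as given above for voom and for library number as a block. Counts without such a share beside them are not a result about the members. Without a filter on low counts they were 1 for restricted against unrestricted females, 14 for refed against restricted mice and 8 in males of that comparison, 9 for males against females and 2 over the 6 genotype comparisons. With limma voom and sample quality weights they were 23 for refed against restricted mice, 4 in females and 7 in males, 6 for refed against unrestricted mice and 9 in males, 40 for males against females and 2 over the genotype comparisons. With DESeq2 they were 2 for refed against restricted males, 1 for refed against unrestricted males, 8 for males against females and 2 over the genotype comparisons. With library number as a block they were 0 for refed against restricted mice and 0 in males, 16 for males against females and 2 over the genotype comparisons. With a trend on transcript length removed they were 7 for refed against restricted mice and 5 in males, and with a trend on GC content removed 5, 2 and, for males against females, 0. At an adjusted p under 0.1 they were 19 for refed against restricted mice, 1 in females and 6 in males, 1 for refed against unrestricted males and 2 over the genotype comparisons. With only the groups compared they were 2 in refed against restricted females, 0 in males and 0 over the genotype comparisons. A robust estimate of spread gave 0 for refed against restricted males, and the fit without 2 libraries that stand apart, chosen after seeing the data, gave 0 there and 0 over the genotype comparisons. Single calls also moved. With age as a covariate Atp5po was not called for refed against restricted mice (edgeR adjusted p = 0.0592). For males against females mt-Nd4 was then not called (edgeR adjusted p = 0.0524), while mt-Co3 and mt-Nd2 were (edgeR adjusted p = 0.0338 and 0.0462). With robust spread mt-Nd3 was not called there (edgeR adjusted p = 0.0637), while mt-Co3 was (edgeR adjusted p = 0.0462). The cause of these shifts was not tested.

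Leaving out each library in turn gave 0 to 1 for restricted against unrestricted males, 1 to 32 for refed against restricted mice, 0 to 2 in females and 0 to 27 in males, 0 to 2 for refed against unrestricted mice and 0 to 16 in males, 0 to 23 for males against females, and 0 to 7 over the genotype comparisons. Shares of all genes called are not given for these fits. For males against females mt-Atp8 was 0.029 with the length trend removed, 0.055 with the GC trend removed and between -0.057 and 0 with a library left out. The value of mt-Nd4l was 0.007 with the GC trend removed and 0.003 with the copies added, and that of mt-Nd6 was 0.022 and 0.049 with the length and GC trends removed. Differences of summed levels and of their ratio moved by less than 1 within-group SD from the reported value under the alternatives run for them. These were RLE factors, scaling without mitochondrial genes, medians in place of sums, copies added, each library left out, and isoforms and overlapping mitochondrial genes dropped. For the ratio that SD was 0.176, against 0.104 between refed and restricted mice, so a change of sign could pass. Sums were not run with library number as a block or with the trends removed. DESeq2 was not run for the interactions with feeding state. No paired analysis was possible because replicate numbers were given in accession order and the labels pair no mice across groups.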
